A study of Mus musculus with 12 samples.

Results

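The 8 imprinted growth-control genes described here were measured in mouse embryonic stem cells with and without an Oct4 mutation: Igf2, H19, Igf2r, Cdkn1c, Kcnq1ot1, Kcnq1, Phlda2 and Grb10. They were chosen by name, with earlier results of these data known, as the Igf2-H19-Kcnq1 imprinted domain with 2 further imprinted growth regulators. They are 8 of the 55416 genes counted. All 8 passed the filter on low counts, which 17940 genes passed. The 4 groups were wild-type (WT) Bl/6J cells and cells of an Oct4 C48S line derived from them, each undifferentiated or after 2 days of retinoic acid (RA), with 3 libraries per group. C48S replaces cysteine with serine at residue 48 of Oct4, the transcription factor encoded by Pou5f1. The stated aim was to compare the parental and the mutant cells in the pluripotent and in the RA-differentiated state. Undifferentiated cells of both lines grew with a MEK inhibitor (PD03259010, 1 µM), a GSK3b inhibitor (CHIR99021, 3 µM) and ascorbic acid, and RA cells in medium without LIF and with 1.50 mg/L RA. The protocol names the inhibitors for undifferentiated cells alone, so RA and the other changes of medium cannot be told apart, and RA here stands for all of them. The mutant is a single line, numbered 46, so its genotype cannot be told apart from other differences between the lines. Titles and protocol place every RA library at 2 days, whereas the treatment field gives each RA library a different day and was not used. If that field held, day and genotype could not be told apart in RA. Nothing in the labels says that the 3 libraries of a group came from separate cultures, so p-values cover the spread between libraries alone, and this spread could be technical.

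Libraries held between 8678088 and 13597098 counts. All 10 pluripotent stem cell markers listed were counted in every group. Their summed level was 4841 to 5019 CPM (counts scaled to a common library size) in undifferentiated WT, 5183 to 5550 in undifferentiated C48S, 384 to 408 in WT after RA and 856 to 898 in C48S after RA. Replicate 3 of undifferentiated C48S stood apart. Its counts differed from those of the other 2 by chi-square values of 9.66 and 9.88 per degree of freedom, against at most 2.26 within every other pair of one group. Results that change without it are given with and without it.

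Imprinted genes are transcribed mainly from the copy inherited from 1 parent. On mouse chromosome 7, a control region methylated on the paternal copy sets Igf2, a growth factor, against H19, a noncoding RNA, since both use shared enhancers and CTCF bound to the unmethylated copy insulates Igf2 from them. In the neighbouring domain, the long antisense RNA Kcnq1ot1 is made from the paternal copy and silences nearby genes on it, among them Cdkn1c and Phlda2, which restrain growth. Igf2r, on chromosome 17, clears IGF2 from the cell surface, and its antisense RNA Airn silences it on the paternal copy. Grb10, on chromosome 11, binds insulin and IGF1 receptors and dampens their signal. The counts do not separate the parental copies, so imprinting itself was not measured.

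In the GRCm39 coordinates of the files, H19 lies at chr7:142129266-142131880 and Igf2 at chr7:142204503-142220553, both on the minus strand. Kcnq1 lies on the plus strand at chr7:142660099-142980779 and contains Kcnq1ot1, on the minus strand at chr7:142757195-142850286. Cdkn1c (chr7:143012076-143014787) and Phlda2 (chr7:143055282-143056887) follow, both on the minus strand. Igf2r lies at chr17:12901293-12988551 and Grb10 at chr11:11880508-11988683, both on the minus strand. Strand was used in the counting, so Kcnq1 and Kcnq1ot1, Igf2 and Igf2os, and Igf2r and Airn were counted apart. Of the 5723 exonic bases of Igf2, 3596 (62.8%) are shared on the same strand with the readthrough model Gm49394, which had 64 counts in all libraries against 3010 for Igf2. Read pairs in the shared bases may have gone uncounted, so the level of Igf2 may be understated in every library.

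Promoter sequences from RefSeq (GRCm38.p6, an earlier build than that of the files) were matched for 5 of the 8 genes: Igf2 with 4 start sites, Grb10 with 2, and Igf2r, Kcnq1ot1 and Phlda2 with 1 each. H19, Cdkn1c and Kcnq1 had no entry. The 4 shown come from genes that differed between the lines in at least 1 state, and give the 250 bases before the start site, 5′ to 3′, all from the minus strand. Capitals mark matches on either strand to any of 4 short motifs. The GC box was searched as GGGCGG. The TATA box, which helps to place the start of transcription, was searched as TATAAA. The CCAAT box was searched by the letters of its name. The last motif, AGGTCA, is an element that nuclear receptors bind. Igf2 is shown at the fourth of its start sites, chr7:142657497-142657746, Igf2r at chr17:12769707-12769956, Kcnq1ot1 at chr7:143296548-143296797 and Phlda2 at chr7:143502525-143502774. The other Igf2 sites, not shown, differ from it. The first holds 1 AGGTCA alone, the second none of the 4 motifs and the third 1 GC box alone.
Igf2: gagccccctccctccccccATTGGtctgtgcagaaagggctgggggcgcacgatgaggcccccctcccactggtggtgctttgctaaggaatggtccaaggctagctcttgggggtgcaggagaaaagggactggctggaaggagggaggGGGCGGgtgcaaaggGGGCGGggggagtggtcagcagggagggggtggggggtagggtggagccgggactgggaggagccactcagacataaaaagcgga
Igf2r: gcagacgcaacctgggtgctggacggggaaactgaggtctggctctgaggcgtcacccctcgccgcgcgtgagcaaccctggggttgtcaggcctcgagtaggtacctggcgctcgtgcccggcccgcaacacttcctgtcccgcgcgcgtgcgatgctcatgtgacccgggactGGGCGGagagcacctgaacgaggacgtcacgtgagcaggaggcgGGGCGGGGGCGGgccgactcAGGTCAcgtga
Kcnq1ot1: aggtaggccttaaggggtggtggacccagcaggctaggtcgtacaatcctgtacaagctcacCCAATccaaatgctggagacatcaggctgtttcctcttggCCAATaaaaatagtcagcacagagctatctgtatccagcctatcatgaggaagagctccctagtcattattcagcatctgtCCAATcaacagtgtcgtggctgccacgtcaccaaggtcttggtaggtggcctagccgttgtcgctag
Phlda2: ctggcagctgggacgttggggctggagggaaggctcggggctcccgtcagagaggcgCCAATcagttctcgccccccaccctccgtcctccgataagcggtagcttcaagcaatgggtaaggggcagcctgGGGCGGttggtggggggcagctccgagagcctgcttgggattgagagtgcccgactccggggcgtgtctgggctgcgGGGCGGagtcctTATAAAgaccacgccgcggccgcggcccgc
The Igf2 stretch holds 2 GC boxes and 1 CCAAT box, the Igf2r stretch 3 GC boxes, 2 of them adjoining, and 1 AGGTCA, the Kcnq1ot1 stretch 3 CCAAT boxes and no other match, and the Phlda2 stretch 2 GC boxes, 1 CCAAT box and 1 TATA box. Of 32851 promoter windows of this length in the table, 32.7% held a GC box, 33.8% a CCAAT box, 12.4% a TATA box and 14.0% AGGTCA. None of the 4 held the octamer ATGCAAAT, the element that Oct4 binds, which 1.6% of the windows held. These matches are a description of the letters and not of binding.

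H19 also carries the hairpin of miR-675 in its exonic sequence, at which the libraries give no count of its own (0 in all 12). Its mature forms, which RNA-seq of this kind does not measure, are shown because they are made from the transcript that changed most with RA among the 8, with bases 2 to 8, the seed, in capitals.
miR-675-5p: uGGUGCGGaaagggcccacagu
miR-675-3p: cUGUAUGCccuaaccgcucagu
The 2 seeds differ.

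Igf2, the fetal growth factor, was higher in C48S than in WT in both states and rose with RA in both lines. In undifferentiated WT it was at 0.315, 0.672 and 0.651 CPM, which rest on 3, 8 and 6 counts. Undifferentiated C48S held 3.31, 3.73 and 3.31 CPM. After RA, WT held 5.91, 4.20 and 4.30 CPM and C48S 76.2, 75.7 and 74.3 CPM. No 2 groups overlapped, and C48S after RA stood far above the rest. The C48S mean was 6.32-fold the WT mean before RA (log2 difference 2.61 ± 0.35 SE, adjusted p = 2.04e-09) and 15.7-fold after it (3.98 ± 0.13, adjusted p = 1.17e-25). RA raised Igf2 by 3.08 ± 0.35 on the log2 scale in WT and by 4.45 ± 0.15 in C48S. The rise was larger in C48S by 1.37 ± 0.38 (adjusted p = 0.00833), and this difference did not pass the test without WT undifferentiated replicate 2 (1.15, adjusted p = 0.113) or replicate 3 (1.24, adjusted p = 0.0527).

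H19, the noncoding RNA next to it, rose with RA in both lines, but reached a far lower level in C48S. Undifferentiated WT held 9.65, 11.7 and 14.9 CPM and undifferentiated C48S 9.50, 7.57 and 5.38 CPM. After RA, WT held 6679, 7091 and 6413 CPM and C48S 328, 346 and 352 CPM. The groups did not overlap, and before RA the lowest WT library and the highest C48S library lay close together. In WT after RA, H19 took 0.718% to 0.789% of all counts and ranked 5 of the 17940 genes tested by mean CPM, against rank 351 in C48S. The WT mean was 19.7-fold the C48S mean after RA (log2 difference -4.30 ± 0.088, adjusted p = 1e-12). Before RA the difference was -0.66 ± 0.19 (adjusted p = 0.0107), and without C48S undifferentiated replicate 3 it was -0.47 (adjusted p = 0.0511). RA raised H19 558-fold in WT (9.13 ± 0.14 on the log2 scale) and 45.7-fold in C48S (5.49 ± 0.16). The rise was smaller in C48S by a log2 difference of -3.64 ± 0.21 (adjusted p = 5.9e-08).

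**Figure D1:**
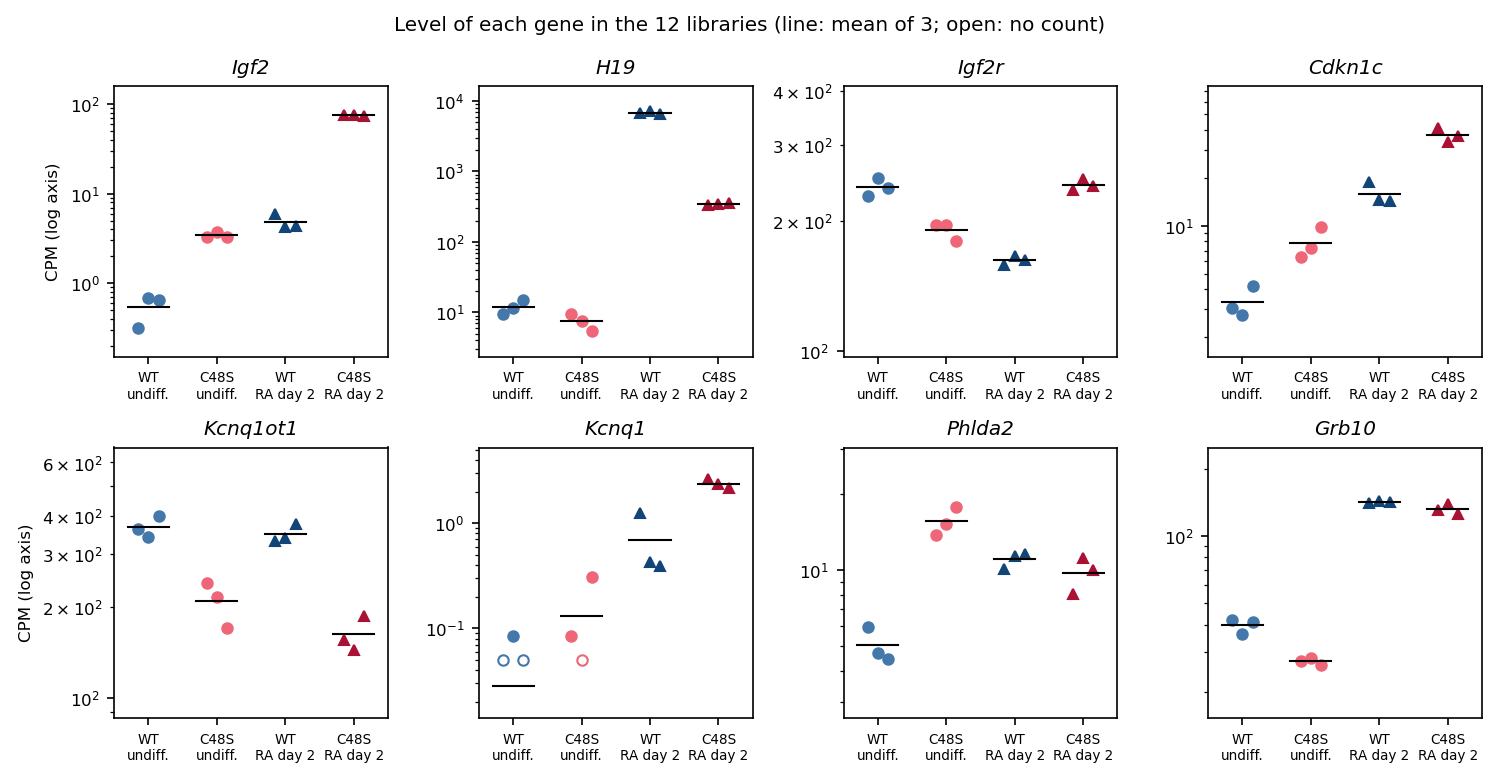
CPM (log axis) of each of the 8 genes in the 12 libraries, with a point per library, a line at the mean of each group and open symbols, drawn at an arbitrary height, for libraries without a count. H19 reaches 6413 to 7091 CPM in WT after RA against 328 to 352 in C48S, while Igf2 is highest in C48S after RA, at 74.3 to 76.2 CPM.

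Igf2 and H19 moved in opposite directions between the lines, and their ratio within a library shows this on a scale per exonic length. H19 over Igf2 stood at 61.5, 38.2 and 49.2 in the undifferentiated WT libraries and at 6.63, 4.69 and 3.76 in the undifferentiated C48S libraries. After RA it stood at 2608, 3886 and 3433 in WT and at 10.03, 10.62 and 11.04 in C48S. H19 exceeded Igf2 per length in all 12 libraries, and the groups did not overlap. The mean log2 ratio was 5.61 ± 0.34 (SD, n = 3) in WT and 2.29 ± 0.41 in C48S before RA, and 11.67 ± 0.29 and 3.40 ± 0.070 after it. C48S minus WT was -3.32 before RA and -8.27 after it, each with an exact two-sided permutation p of 0.1, the smallest that 3 against 3 libraries allow (0.109 adjusted over 12 ratio comparisons). Dividing Igf2 by its 2127 unshared exonic bases instead would lower each ratio 2.69-fold and leave the differences between groups as they are.

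**Figure D2:**
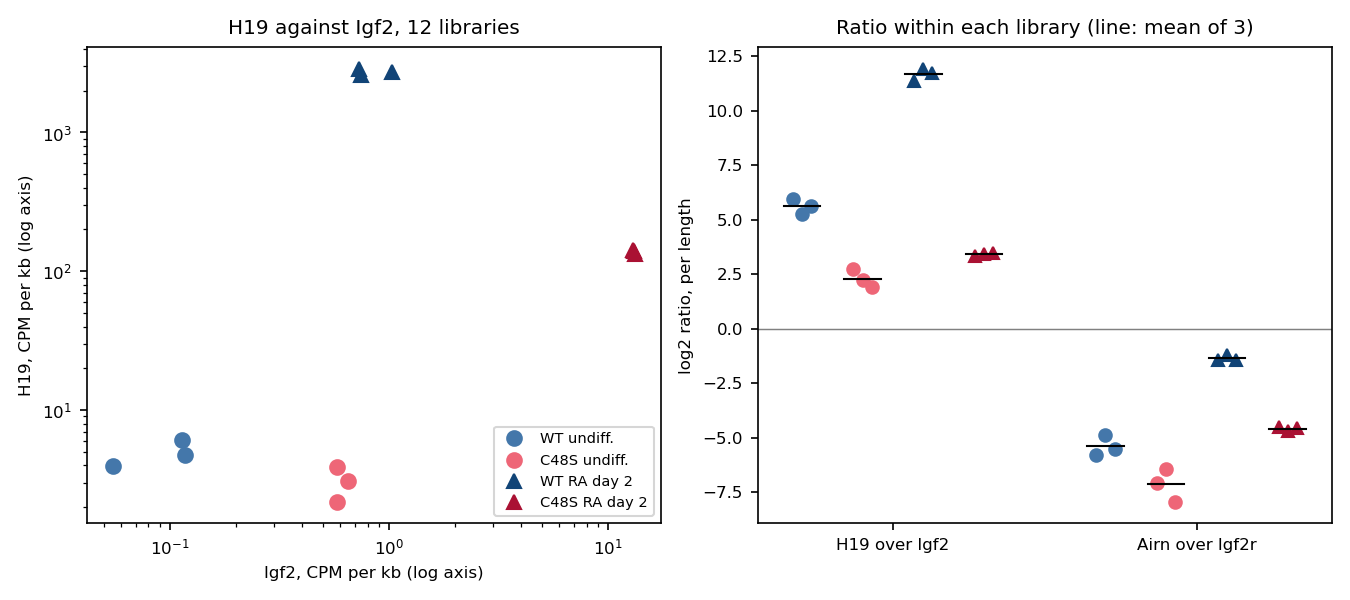
Left, H19 against Igf2 in CPM per kb of exon (log axes), a point per library. Right, log2 ratio per length of H19 over Igf2 and of Airn over Igf2r in each library, with a line at the mean of 3. The WT libraries after RA lie highest for both ratios, at 11.67 and -1.36 on average, against 3.40 and -4.60 in C48S after RA.

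Of the 10 genes listed around H19 and Igf2, 6 could be tested. Before RA 2 were higher in C48S, none was lower and 4 were not called. Among the latter, Tnnt3 had no count before RA and could not be called. With only the 2 groups compared, 1 was higher, as Igf2os was then too low to be tested. After RA 2 were higher and 4 lower. Of all genes tested, 27.5% were higher and 28.1% lower before RA, and 28.8% and 25.7% after it. The median log2 difference of the 6 was 0.26 and -0.43, against 0.00 and 0.02 over all genes tested. Tnnt3 enters the first of these medians as a 0 for want of counts. Igf2os, the antisense RNA of Igf2, was higher in C48S by 2.30 ± 0.63 before RA and 2.68 ± 0.28 after it. Th, the tyrosine hydroxylase gene on the side of Igf2 away from H19, was higher by 3.58 ± 0.43 and 2.24 ± 0.35. The 4 genes on the H19 side were lower in C48S after RA. The lysosomal protease gene Ctsd differed by -0.50 ± 0.048, the leukocyte protein gene Lsp1 by -2.003 ± 0.22 and the mitochondrial ribosome gene Mrpl23 by -0.35 ± 0.098. Tnnt3, a skeletal muscle troponin, had no count in any undifferentiated library and 146 counts in WT and 36 in C48S after RA. It was at least 47.3-fold higher after RA in WT and at least 10.2-fold higher in C48S, taking 3 counts in a group as the floor, and WT and C48S differed after RA with an adjusted p of 2.23e-07. Ctsd, Lsp1 and Mrpl23 did not pass the test before RA, and Tnnt3, without counts there, could not. Tnnt3 entered the test through the RA libraries alone, where it was highest in WT.

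**Figure D3:**
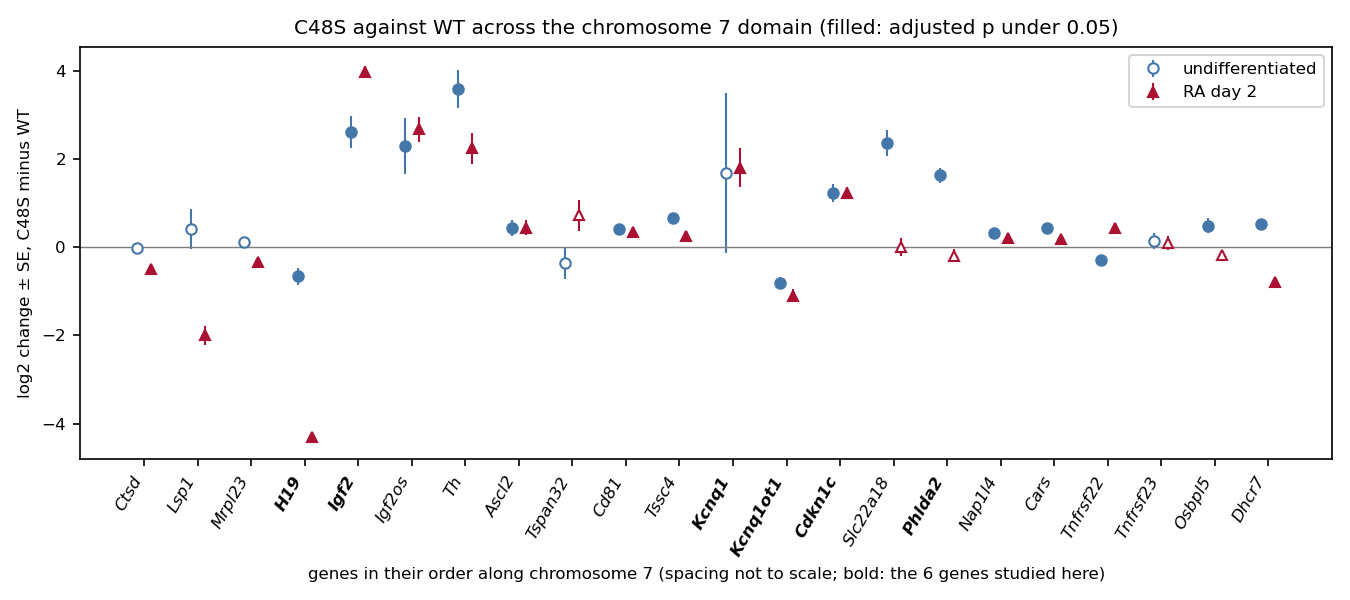
Log2 difference, C48S minus WT, with its SE, of the tested genes of both domains in their order along chromosome 7 (not to scale), before RA (circles) and after RA (triangles). Filled symbols have an adjusted p under 0.05. Tnnt3, without counts before RA, is not drawn. After RA the genes from Ctsd to H19 lie below 0, with H19 at -4.30, and Igf2, Igf2os and Th above it, with Igf2 at 3.98.

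Other cell types also express H19 and Igf2, and their markers moved between the groups as well. The 14 trophoblast markers summed to 108 to 120 CPM in undifferentiated WT and 149 to 156 in undifferentiated C48S. After RA they summed to 647 to 669 in WT and 403 to 430 in C48S. Of these markers, Tpbpa had no count in any library. The keratins Krt8 and Krt18 held 74.9% to 76.3% of that sum in WT after RA and 47.2% to 47.9% in C48S after RA, and the rest of the list summed to 153 to 168 and 212 to 227 CPM. Between the lines after RA, 4 trophoblast markers were higher in C48S and 4 lower, with Cdx2 at mean levels of 2.95 CPM in WT and 38.2 in C48S. The 12 endoderm markers summed to 11.1 to 14.4, 21.9 to 28.0, 79.2 to 82.9 and 75.3 to 78.3 CPM in the same order, with Afp and Ttr without a count in both undifferentiated groups. The 16 fibroblast and feeder markers summed to 3143 to 3319, 3034 to 3920, 1450 to 1582 and 2400 to 2580 CPM. Fn1, which codes for fibronectin, held 69.3% to 83.8% of that sum in every library, and between the lines after RA 3 fibroblast markers were higher in C48S and 6 lower (median -0.17). After RA, 3 endoderm markers were higher in C48S and 3 lower. In none of these 3 lists did the markers move together between the lines. Of the 10 pluripotent stem cell markers, 9 were higher in C48S after RA and 1 lower (median 1.84). Over all genes tested, 28.8% were higher and 25.7% lower. The part of these markers in the results for H19 and Igf2 was not tested. In bulk samples, fewer cells of a type and less RNA per cell cannot be told apart.

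Igf2r, the receptor that clears IGF2, differed little in size but in opposite directions in the 2 states. Undifferentiated WT held 229, 251 and 239 CPM, undifferentiated C48S 196, 195 and 180, WT after RA 158, 166 and 162, and C48S after RA 236, 251 and 241. Undifferentiated WT and C48S after RA overlapped, and the other groups did not. C48S was lower before RA by a log2 difference of -0.33 ± 0.050 (adjusted p = 5.06e-07) and higher after it by 0.58 ± 0.050 (adjusted p = 3.63e-12). RA lowered Igf2r in WT (-0.57 ± 0.050) and raised it in C48S (0.35 ± 0.049), and these changes differed by 0.92 ± 0.070. None of these differences passed against a null of 1.5-fold, except the difference between the RA changes.

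Airn, the antisense RNA of Igf2r, was the only one of the 5 genes listed around Igf2r that could be tested. It was at 1.99 to 4.20 CPM in undifferentiated WT, 0.310 to 1.07 in undifferentiated C48S, 29.2 to 35.3 in WT after RA and 4.68 to 5.07 in C48S after RA. It was lower in C48S by -2.11 ± 0.39 before RA (adjusted p = 3.64e-06) and -2.67 ± 0.16 after it (adjusted p = 7.6e-17). RA raised it in WT by 3.40 ± 0.20 and in C48S by 2.84 ± 0.38, and these rises did not differ by the test (-0.56 ± 0.43, adjusted p = 0.35). The mean log2 ratio of Airn over Igf2r per length was -5.41 ± 0.47 in WT and -7.15 ± 0.76 in C48S before RA, and -1.36 ± 0.12 and -4.60 ± 0.11 after it (SD, n = 3). C48S minus WT was -1.75 and -3.24, each with an exact permutation p of 0.1.

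Kcnq1ot1, the silencing antisense RNA of the Kcnq1 domain, was lower in C48S in both states. Undifferentiated WT held 363, 340 and 399 CPM, undifferentiated C48S 240, 216 and 171, WT after RA 331, 338 and 376, and C48S after RA 156, 145 and 187. Every C48S library lay below every WT library, while the 2 states of each line overlapped. The differences were -0.81 ± 0.14 (adjusted p = 0.000879) and -1.10 ± 0.14 (adjusted p = 0.000135). RA did not change Kcnq1ot1 by the test in WT (-0.076 ± 0.14, adjusted p = 0.624). In C48S the change was -0.36 ± 0.14 (adjusted p = 0.0446), a call lost without any of 6 libraries: C48S undifferentiated replicates 1 and 2, WT RA replicates 1 and 2, and C48S RA replicates 1 and 2 (-0.24 to -0.36).

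Kcnq1, the potassium channel gene that Kcnq1ot1 overlaps, was near 0 before RA, with 1 count over the 3 WT libraries and 4 over the C48S libraries. After RA, WT held 1.24, 0.429 and 0.391 CPM and C48S 2.61, 2.34 and 2.14 CPM. The lines did not overlap after RA, where Kcnq1 was higher in C48S by 1.80 ± 0.45 (adjusted p = 0.000397). With a library left out Kcnq1 was higher by 1.52 to 2.49, the highest without WT RA replicate 1. Only C48S after RA reached the filter's minimum count of 10 in all 3 libraries. Kcnq1 thus entered the test through the group where it is highest, which limits its comparisons with that group. RA raised it in WT 20.4-fold by the ratio of counts, with an exact 95% counting interval from 3.28 to 844, and in C48S by 4.07 ± 0.85 on the log2 scale, from 4 counts, or 3.56 to 5.34 with a library left out, the highest without C48S undifferentiated replicate 3. Per length, Kcnq1ot1 over Kcnq1 stood at 11.2, 31.5 and 37.6 in WT and 2.59, 2.67 and 3.78 in C48S after RA, a log2 difference of -3.00 (exact permutation p = 0.1). The ratio before RA is set mostly by the pseudocount of 0.5 counts and is not read.

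Cdkn1c, the p57 inhibitor of cyclin-dependent kinases, was higher in C48S in both states and rose with RA in both lines. Undifferentiated WT held 3.04, 2.77 and 4.23 CPM, undifferentiated C48S 6.36, 7.25 and 9.82, WT after RA 18.9, 14.6 and 14.4, and C48S after RA 41.0, 33.7 and 36.8. The groups were ordered with no overlap. C48S exceeded WT by 1.23 ± 0.21 before RA (adjusted p = 4.61e-06) and by 1.23 ± 0.12 after it (adjusted p = 1.88e-10). RA raised Cdkn1c by 2.26 ± 0.20 in WT and 2.26 ± 0.14 in C48S, and the difference between these rises was 0.0032 ± 0.24.

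Phlda2, which restrains growth of the placenta, was higher in C48S before RA, and the lines overlapped after it. Undifferentiated WT held 5.98, 4.70 and 4.45 CPM, undifferentiated C48S 13.7, 15.2 and 17.8, WT after RA 10.1, 11.4 and 11.6, and C48S after RA 8.07, 11.1 and 9.98. C48S exceeded WT before RA by 1.62 ± 0.16 (adjusted p = 4.11e-11). After RA the difference was -0.19 ± 0.14 (adjusted p = 0.257). RA raised Phlda2 in WT (1.13 ± 0.17) and lowered it in C48S (-0.68 ± 0.14), and these changes differed by -1.82 ± 0.21 (adjusted p = 9.25e-09). Slc22a18, its neighbour and an imprinted transporter gene, was higher in C48S by 2.36 ± 0.30 before RA and differed by 0.0053 ± 0.21 after it. Its RA changes also differed (-2.36 ± 0.37, adjusted p = 1.07e-06).

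Of the 13 other genes listed for the Kcnq1 domain, 11 were tested. Before RA 8 were higher and 1 lower in C48S, with a median difference of 0.43, where 27.5% of all genes were higher and 28.1% lower. After RA 6 were higher and 1 lower, with a median of 0.21, where 28.8% of all genes were higher and 25.7% lower. The 6 fell to 3 with RLE scaling, with DESeq2, and without WT RA replicate 3 or C48S RA replicate 1. They fell to 4 without WT RA replicate 2 or without WT undifferentiated replicate 1 or 2. Against a null of 1.5-fold none of the 6 kept its call, and of the 8 before RA only Slc22a18 did. The call of Ascl2 before RA was also lost in 7 other alternatives, among them RLE scaling and DESeq2. The median over the 1113 tested protein-coding genes of chromosome 7 averaging 1 CPM or more was 0.04 before RA and 0.13 after it. Cd81, a tetraspanin, was higher in both states (0.42 ± 0.045 and 0.34 ± 0.044), as was the histone chaperone gene Nap1l4 (0.32 ± 0.054 and 0.21 ± 0.056). Dhcr7, of cholesterol synthesis, was higher before RA (0.52 ± 0.084) and lower after it (-0.79 ± 0.072). Tnfrsf22, a decoy receptor, was lower before RA (-0.29 ± 0.10) and higher after it (0.43 ± 0.12), and its call before RA was lost without C48S undifferentiated replicate 3 or WT undifferentiated replicate 2.

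Grb10, the adaptor that dampens insulin and IGF1 receptor signals, rose with RA in both lines. Undifferentiated WT held 41.7, 36.4 and 40.9 CPM, undifferentiated C48S 27.6, 28.4 and 26.5, WT after RA 140.9, 143.0 and 141.5, and C48S after RA 131.0, 139.4 and 125.8. The groups did not overlap. C48S was lower before RA by -0.52 ± 0.074 (adjusted p = 1.68e-07). In that comparison the median was -0.53 over the 1167 tested protein-coding genes of chromosome 11 averaging 1 CPM or more. After RA the difference was -0.10 ± 0.056 (adjusted p = 0.116), where the chromosome's median was -0.48. It passed the test with another scaling (-0.15, adjusted p = 0.023), with only the 2 groups compared (adjusted p = 0.0062) and without C48S undifferentiated replicate 2 (adjusted p = 0.0499) or 3 (adjusted p = 0.0316). RA raised Grb10 by 1.84 ± 0.063 in WT and 2.26 ± 0.067 in C48S, and the rise was larger in C48S by 0.42 ± 0.092 (adjusted p = 0.000343). Among the 5 genes listed around Grb10, Ddc, Fignl1 and Ikzf1 were lower in C48S in both states and Cobl was higher in both. Zpbp differed by 0.08 ± 0.56 before RA and -0.92 ± 0.35 after it. The latter passed the test but was lost with DESeq2, without the low-count filter, and without WT RA replicate 2 or 3 or C48S RA replicate 2 or 3.

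Counted over the 8 genes, 3 were higher and 4 lower in C48S before RA, where 55.6% of all genes tested were called, 27.5% higher and 28.1% lower. After RA 4 were higher and 2 lower, where 54.5% of all genes were called, 28.8% higher and 25.7% lower. RA raised 6 and lowered 1 in WT, where 40.9% of all genes rose and 37.4% fell (78.3% in all). RA raised 6 and lowered 2 in C48S, where 39% rose and 34.6% fell (73.6% in all). The difference between the RA changes was positive for 3 and negative for 2, where 22.2% of all genes were positive and 17.2% negative (39.4% in all). With so many genes called, the number of calls among the 8 is not a result about them, and the sizes of the changes are given beside it. The median log2 difference of the 8 was 0.45 before RA and 0.24 after it between the lines, and 2.05 in WT and 2.26 in C48S for RA, against 0.00, 0.02, 0.06 and 0.05 over all genes tested. The 8 were chosen with earlier results of these data known, so their medians are a description and not a test. The comparisons between the lines after RA and of RA in each line share the RA libraries.

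**Figure D4:**
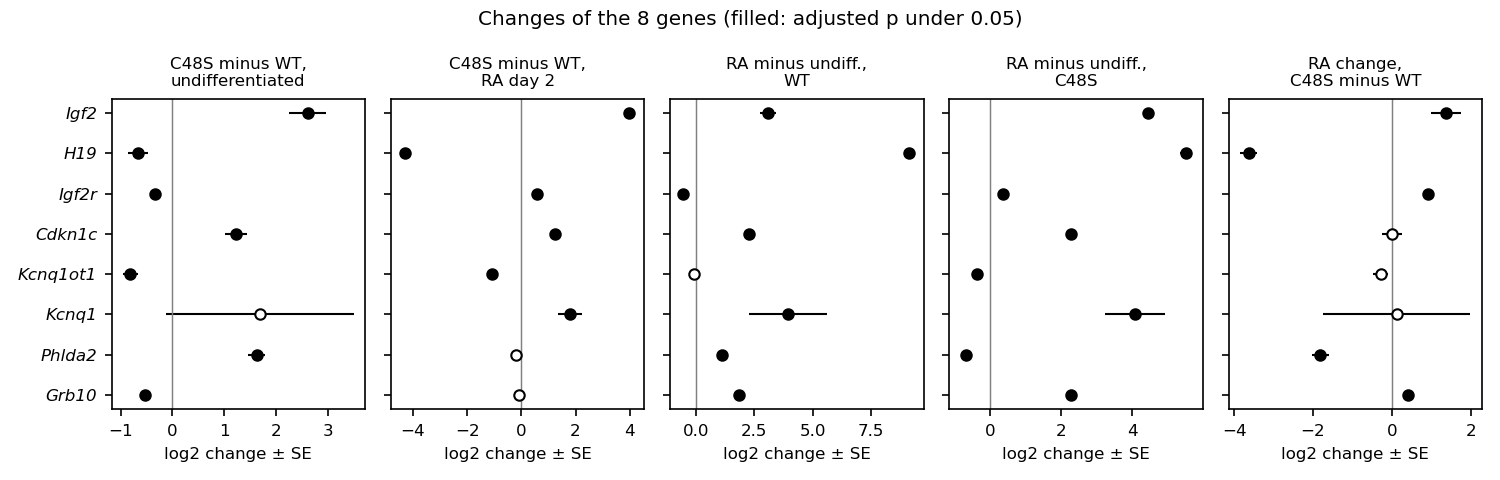
Log2 change with its SE of the 8 genes in the 5 comparisons, each panel with its own axis. Filled symbols have an adjusted p under 0.05. Igf2 and H19 lie on opposite sides of 0 after RA, at 3.98 and -4.30, and the change between lines of Cdkn1c is 1.23 in both states.

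The other genes of the IGF pathway, which code for the ligand IGF1, the receptors, binding proteins, substrates and RNA-binding proteins, moved in both directions. Of 25 listed, 24 were tested. Before RA 9 were higher and 9 lower in C48S (55.6% of all genes called in either direction), and after RA 6 were higher and 10 lower (54.5% of all genes), with medians of -0.03 and -0.05. RA raised 13 and lowered 7 in WT and raised 17 and lowered 3 in C48S, with medians of 0.54 and 0.93. Of all genes, 40.9% rose and 37.4% fell in WT, and 39% rose and 34.6% fell in C48S. The 7 that fell in WT became 4 without WT undifferentiated replicate 2 or WT RA replicate 1. The calls of Igf2bp2 and Igf2bp3 among them were also lost with DESeq2, RLE scaling, and scaling without chromosomes 6, 8, 11 and Y. Both were lost as well without WT undifferentiated replicate 1 or any C48S RA replicate. The interaction, which subtracts the WT change on RA from the C48S change, was positive for 7 and negative for 5. Over all genes 22.2% were positive and 17.2% negative. Of the RNA-binding proteins that bind Igf2 mRNA, Igf2bp2 was lower in C48S in both states (-2.20 ± 0.070 and -1.11 ± 0.063), Igf2bp1 was lower by less (-0.66 ± 0.045 and -0.23 ± 0.046), and Igf2bp3 was higher (0.53 ± 0.048 and 1.20 ± 0.047). The IGF-binding protein gene Igfbp3 was lower in both (-1.06 ± 0.12 and -1.78 ± 0.085), and Igfbp7 was higher in both (1.23 ± 0.090 and 1.13 ± 0.11). Igfbp4 was higher in C48S before RA (0.77 ± 0.16) and lower after it (-1.16 ± 0.10). The differences in this list were not set against the shift of each gene's chromosome. For chromosome 11 that shift, as a median, was -0.53 before RA and -0.48 after it. An alternative scaling also left out chromosomes 6, 8 and Y, for which no such median was taken. The receptor Igf1r, named here for its role and not by the rule for named genes, was higher in C48S before RA (0.44 ± 0.064) and differed by 0.05 ± 0.061 after it.

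RA raised the insulin receptor substrates in both lines, Irs1 by 2.36 ± 0.14 in WT and 1.75 ± 0.13 in C48S, and Irs2 by 2.18 ± 0.077 and 2.58 ± 0.080. The insulin receptor gene Insr rose by 1.00 ± 0.061 and 1.13 ± 0.059. Grb7, a relative of Grb10 and also on its chromosome, was higher in C48S before RA (1.90 ± 0.12) and lower after it (-0.28 ± 0.088), and rose with RA by 2.54 ± 0.12 in WT and 0.36 ± 0.092 in C48S.

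**Figure D5:**
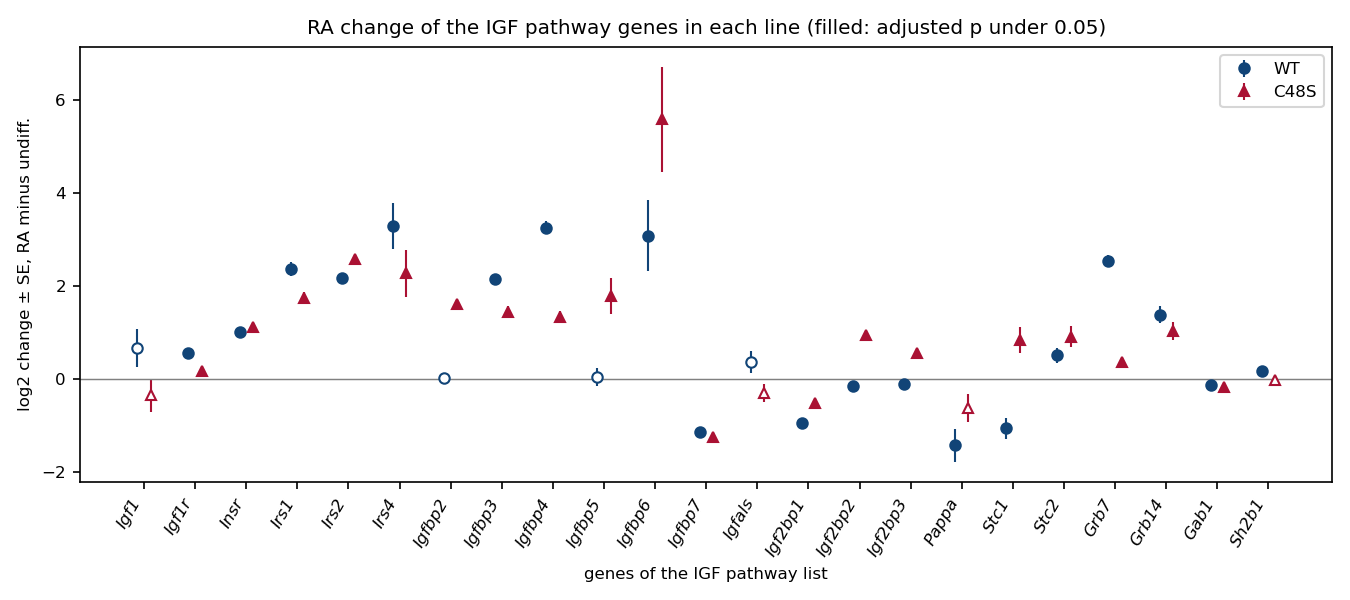
Log2 change on RA, with its SE, of 23 of the 24 tested IGF pathway genes in WT (circles) and C48S (triangles). Filled symbols have an adjusted p under 0.05. Pappa2, without counts in undifferentiated C48S, is not drawn. Irs2 rises by 2.18 and 2.58, and Grb7 by 2.54 in WT and 0.36 in C48S.

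All 4 listed relatives of Cdkn1c and Phlda2 were higher in C48S in both states, as were 27.5% of all genes before RA and 28.8% after it. Cdkn1b, the p27 inhibitor of the family of Cdkn1c, differed by 1.94 ± 0.088 before RA and 1.46 ± 0.085 after it, and Cdkn1a, the p21 inhibitor, by 0.43 ± 0.047 and 0.77 ± 0.049. Phlda1 differed by 1.03 ± 0.13 and 0.89 ± 0.10, and Phlda3 by 0.88 ± 0.094 and 0.51 ± 0.088. RA raised Cdkn1b in WT by 0.22 ± 0.098, a call lost with DESeq2, without the low-count filter, and without WT undifferentiated replicate 3 or WT RA replicate 3, and lowered it in C48S (-0.26 ± 0.074). Cdkn1c rose in both lines.

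Among 8 genes that maintain imprints, 3 were higher and 4 lower in C48S before RA, where 27.5% of all genes were higher and 28.1% lower, and 4 higher and 2 lower after it, where 28.8% and 25.7% were. Zfp57, which binds methylated imprint control regions, was higher by 0.53 ± 0.044 and 1.83 ± 0.050, and Trim28, which it recruits, was lower before RA (-0.55 ± 0.056) and higher after it (0.32 ± 0.057). Ctcf, the insulator protein, was higher by 0.21 ± 0.050 and 0.76 ± 0.053, and its relative Ctcfl was lower before RA (-3.19 ± 0.46). Dppa3, which protects imprints in the early embryo, was lower before RA (-2.37 ± 0.13) and differed by -0.06 ± 0.28 after it. The DNA methyltransferase gene Dnmt1 was higher in both states (0.31 ± 0.043 and 0.17 ± 0.044), and Uhrf1, which guides it, was lower in both (-0.20 ± 0.044 and -0.17 ± 0.045). Zfp445 differed by 0.08 ± 0.055 before RA and was lower after it (-0.18 ± 0.055). RA lowered 6 of the 8 in WT, and 7 in C48S, where Ctcfl rose. Of all genes, RA lowered 37.4% in WT and 34.6% in C48S.

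Over the 12 libraries, the genes most like each of the 8 were sought among 13918 other protein-coding genes by Pearson's r of log2 CPM. The r values describe the 4 groups more than the libraries within them, and the libraries share depth and state. Igf2 was most like Wnt3a (r = 0.995), Slc38a7 and Hoxa7. Wnt3a stood at mean levels of 0.679, 1.73, 2.28 and 13.6 CPM in undifferentiated WT, undifferentiated C48S, WT after RA and C48S after RA, the order that Igf2 has. H19 was most like Ctr9 (0.999), Gnas and Scd1. Gnas is itself at an imprinted locus, and held 196, 178, 478 and 326 CPM. An r near 1 says nothing of the size of a change, and H19 held 12.1, 7.48, 6727 and 342 CPM in the same order. Cdkn1c was most like Khnyn (0.991), Cand2 and Col2a1, and Grb10 was most like Greb1l (0.997), Itga3 and Zfp703. The values were lower for the rest. Igf2r was most like Mme (0.970), Cited2 and Zfp568. Kcnq1ot1 was most like Rad51c (0.976), Abi2 and Sptbn1. Kcnq1 was most like Pear1 (0.972), Retsat and Avil, and Phlda2 was most like Socs4 (0.957), with Poli also among its 3 most like genes.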

How the data were processed

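Per the labels' protocols, libraries were made from total RNA after removal of ribosomal RNA. Each deposited file gives unscaled counts by gene, made with featureCounts 1.6.3 on read pairs (strand option 2, largest overlap) and Ensembl release 104 of GRCm39, per the file headers. STAR 2.7.9a, DESeq2 and mm39 are named in the submitters' processing notes. A reference list of gene names gave symbols for 52083 of the gene identifiers, and GENCODE M21, made for the GRCm38 build, gave biotypes. Library totals are in the report. Counting error limits Kcnq1 and undifferentiated Igf2 most.

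Tests used edgeR 4.0.16 (R 4.3.3). Genes were kept by filterByExpr at a minimum count of 10, scaled by TMM, and fitted by robust quasi-likelihood with 1 mean per group across the 12 libraries (8 residual degrees of freedom). Adjusted p is edgeR's quasi-likelihood p with Benjamini-Hochberg adjustment over the 17940 genes tested, and a gene was called under 0.05. The SE of a log2 change is the quasi-likelihood Wald SE. CPM is TMM-scaled, folds in words are ratios of mean CPM, and ratios between genes are per exonic length with 0.5 counts added, compared by exact permutation. The difference between RA changes is the interaction, C48S minus WT. Alternatives were other scalings, DESeq2 1.42.0, other filters, only the groups compared, a null of 1.5-fold, the replicate number as a block, a pseudocount of 2 and each library left out. The script was tested on simulated counts.

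The 8 genes and the lists were chosen with earlier results of these data known. All 8 are named in every comparison. Of other lists, up to 4 genes with the smallest adjusted p per comparison are named, or all of a short list or a list with few calls, and a gene named in 1 comparison may be named in others. For each of the 8, the 3 most like protein-coding genes are named, among those averaging 1 CPM or more, except 1 that is not reported here.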

Additional observations from a re-analysis of the deposited data

Results flagged for a closer look

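The RA change differed between the lines by the interaction test for 5 of the 8 genes (edgeR, adjusted p under 0.05). Of all genes tested, 39.4% were called in that test. Igf2 rose more in C48S, by 1.37 on the log2 scale. Its call was lost without WT undifferentiated replicate 2 or 3, and against a null of 1.5-fold. H19 rose less in C48S (-3.64), and Igf2r fell in WT and rose in C48S (a difference of 0.915). Phlda2 rose in WT and fell in C48S (-1.82), and Grb10 rose more in C48S (0.42). The Grb10 call was also lost against that null.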

How the results depend on the processing

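Of the 40 results for the 8 genes in the 5 comparisons, 33 were called. Under alternatives other than the 1.5-fold null, 3 of these lost the call in at least 1: H19 before RA, Kcnq1ot1 on RA in C48S and the Igf2 interaction. Kcnq1ot1 on RA in C48S also lost it without the low-count filter (adjusted p = 0.0657) and with only the groups compared (0.0519). Against a null of 1.5-fold, 11 lost it, and the genes called fell to 1673 higher and 1932 lower (from 4932 and 5038) between the lines before RA, 1420 and 1532 (from 5168 and 4617) after RA, 4522 and 2510 (from 6991 and 6212) for RA in C48S, and 1366 and 891 (from 3990 and 3081) for the interaction. For RA in WT the genes lower fell to 3831 from 6709. Direction changed for 2 uncalled interactions near 0. Cdkn1c was -0.021 with RLE scaling, -0.0075 with scaling without chromosomes 6, 8, 11 and Y, -0.029 with DESeq2 and -0.0094 without the filter, and -0.20 to 0.19 with a library left out. Kcnq1 was -0.11 with DESeq2 and -1.82 to 1.39 with a library left out. No scaling moved the median of all genes by over 0.1. The ratios kept their direction in all 84 alternatives run. Replicate numbers did not pair the libraries (correlations of -0.053 to 0.029 between same-numbered deviations). With the number as a block, 1 of the 33 calls was lost, Kcnq1ot1 on RA in C48S (-0.37, adjusted p = 0.0646), and genes higher in C48S before RA numbered 4863.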

Other observations

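Several genes of the region between Ctsd and Kcnq1 had too few counts for the test. Tnni2, a skeletal muscle troponin like Tnnt3, had 3 counts over the WT libraries before RA and 37 after it (a 11.99-fold ratio, exact 95% counting interval 3.796 to 60.8), against 1 and 5 in C48S (0.475 to 201). Trpm5, a channel gene beside Kcnq1, had 1 and 23 counts in WT (a 22.4-fold ratio, 3.63 to 921) and 2 and 10 in C48S (0.905 to 39.8). Both C48S intervals include 1, and the difference between the lines was not tested. The hairpin of miR-483, within Igf2, had 1 count in all libraries.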
